A study of Mus musculus with 9 samples.

Results

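A set of genes that carry bile acids through the intestinal epithelium or sense them there was followed in mouse colon: Slc10a2, Fabp6, Slc51a, Slc51b and Nr1h4. All 5 were chosen by symbol, with earlier results of these data known. Each had 1 row among the 17511 genes of the authors' deposited comparison of DKO with Wt. The cells were enriched for colon epithelium by EDTA washes of the tissue. Both groups carried the strain label Cdx1-/-Cdx2f/f, a Cdx1 null with a floxed Cdx2, and received tamoxifen for 6 days. The 2 RNA-seq and 2 ATAC-seq libraries labelled DKO were also tagged vill (+), and the 2 and 2 labelled Wt were tagged vill (-). The labels do not spell out vill, the promoter behind any recombinase or whether animals were pooled. One Cdx2 ChIP-seq library, labelled Wt and vill (-), carries an untreated tag, against a protocol text that gives tamoxifen for the whole series, and has no replicate. Cdx2 is a homeobox transcription factor of the intestine, and the series design asked for its binding sites, the chromatin that depends on it and its target genes.

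Bile acids are made in the liver, secreted into the gut and largely reclaimed there. Slc10a2 is the apical sodium-dependent transporter that takes them up, Fabp6 binds them in the cytosol, and Slc51a with Slc51b forms the 2-subunit transporter that exports them across the basolateral membrane. Nr1h4, better known as FXR, is the nuclear receptor that bile acids activate, and it induces Fabp6 and both Slc51 subunits. Uptake through Slc10a2 and binding by Fabp6 are best known from the ileum, while the Slc51 exporter is also prominent in colon.

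The libraries and groups set the following limits. RNA libraries held 16403301 to 25494309 estimated reads, and ATAC lists held 40101 and 23961 peaks in DKO against 48163 and 53943 in Wt, DKO replicate 2 having the fewest. The authors' deposited table gave Cdx2, the floxed gene, a log2 fold change of only -0.27 (adjusted p = 0.301, SE 0.21), which is not a call, so the RNA does not check the labels. Where the floxed exons lie and whether reads fell in them was not analysed here, and DKO and Wt are used as label names throughout. Cdx1, null in both groups by the strain labels, still had a mean normalized count of 2595 and fell by 1.06 on the log2 scale (adjusted p = 2.08e-05, SE 0.23) in the authors' deposited table. Nothing in the labels ties each replicate to its own animal, so p-values cover no more than the spread among these libraries, and that spread may be technical. In the authors' deposited table, general epithelial markers were split (2 higher and 2 lower of 8, median log2 fold change -0.21), with Epcam at -0.22 and Krt8 at -0.20, both not called. Colon epithelial markers were lower in 5 of 6 (median -2.03), and small intestinal enterocyte markers were higher in 4 and lower in 4 of 11 (median -0.04), in the authors' deposited table. Smooth muscle, fibroblast and endothelial markers were lower in 15 of 15 (-9.06 to -1.49, median -5.27), B and plasma cell markers in 6 of 7 (-3.61 to -0.61, median -2.46), and other leukocyte markers higher in 3 and lower in 1 of 11 (-2.13 to 10.99, median 0.34), in the authors' deposited table. The deposited table gives no level per group, so the summed level of these markers cannot be given, and their part in the results below was not tested.

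The promoters below, from RefSeq on GRCm38.p6, show where open chromatin reached the start of each gene. Each runs 5′ to 3′ on the minus strand, on which all 5 genes lie, and ends at the base before the RefSeq start site. For the first 3 genes capitals mark bases inside deposited ATAC peaks: both Wt peaks for Slc51b and Nr1h4, and the peak of Wt replicate 2 alone for Slc51a. No DKO peak touched any of the 5 windows.
Slc51a, chr16:32487880-32488129: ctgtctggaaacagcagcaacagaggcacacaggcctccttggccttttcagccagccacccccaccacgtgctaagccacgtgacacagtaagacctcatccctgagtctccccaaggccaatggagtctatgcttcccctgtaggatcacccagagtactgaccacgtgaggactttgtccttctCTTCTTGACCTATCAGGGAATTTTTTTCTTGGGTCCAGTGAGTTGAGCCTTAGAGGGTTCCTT
Slc51b, chr9:65422774-65423023: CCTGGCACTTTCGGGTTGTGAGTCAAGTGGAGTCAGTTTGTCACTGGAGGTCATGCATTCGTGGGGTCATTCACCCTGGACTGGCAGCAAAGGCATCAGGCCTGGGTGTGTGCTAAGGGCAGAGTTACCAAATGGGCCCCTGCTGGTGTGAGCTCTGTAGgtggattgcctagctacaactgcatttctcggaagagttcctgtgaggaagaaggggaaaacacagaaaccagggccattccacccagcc
Nr1h4, chr10:89506659-89506908: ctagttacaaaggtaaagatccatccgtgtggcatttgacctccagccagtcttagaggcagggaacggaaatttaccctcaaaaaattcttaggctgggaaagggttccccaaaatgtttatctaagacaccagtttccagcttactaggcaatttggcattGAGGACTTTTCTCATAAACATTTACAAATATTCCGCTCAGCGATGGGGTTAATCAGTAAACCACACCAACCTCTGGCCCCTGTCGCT
The open stretch of Slc51b was 160 bases, from 250 to 91 bases before the start, and that of Nr1h4 was the last 87 bases. For Slc51a, 63 bases next to the start lay in the Wt replicate 2 peak. The next 2 windows lay in no ATAC peak of any library and are shown for their motifs, which are in capitals.
Slc10a2, chr8:5105288-5105537: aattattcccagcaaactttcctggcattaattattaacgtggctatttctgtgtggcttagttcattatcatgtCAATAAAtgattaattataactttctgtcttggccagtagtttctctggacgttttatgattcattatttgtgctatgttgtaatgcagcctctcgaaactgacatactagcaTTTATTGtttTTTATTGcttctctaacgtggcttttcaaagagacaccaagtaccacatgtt
Fabp6, chr11:43601563-43601812: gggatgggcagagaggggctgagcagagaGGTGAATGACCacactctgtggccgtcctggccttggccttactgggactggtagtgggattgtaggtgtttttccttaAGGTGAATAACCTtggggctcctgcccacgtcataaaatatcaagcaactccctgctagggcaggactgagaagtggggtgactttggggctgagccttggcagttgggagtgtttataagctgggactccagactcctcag
Slc10a2 held the Cdx-type motif TTTATNG 3 times, ending at positions -169, -56 and -46 counted from the start site, the first of them on the other strand. The other 4 windows held none, and 9.81% of 32851 promoter windows of 250 bases held at least 1, both strands counted. The inverted repeat of the FXR type, searched on both strands in its full form and as its shorter core, was in none of the 5 and in 0.00609% and 0.0335% of all windows. Every match of the longer form is also a match of its core. The Fabp6 window held AGGTGAATAACCT, the form in which this repeat is known from Fabp6, from position -142 to -130. A related form, GGTGAATGACC, stood in Fabp6 from -221 to -211 and on the other strand of Slc51b from -186 to -176, inside the stretch open in both Wt libraries. These last 2 motifs were picked after the sequences were read, from the Fabp6 window itself, so their matches in Fabp6 were fixed in advance. The motifs occurred in 1 and 2 of the 32851 windows, which are the windows just named. The Gata-type motif AGATAA stood once, on the other strand of Nr1h4, against 9.99% of all windows. A match describes letters only, and a window without one says nothing of any factor.

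Slc51a, the larger export subunit, fell far in the libraries labelled DKO, while its partner Slc51b was not called. Nr1h4 fell by a modest amount, and Slc10a2 and Fabp6 were not called. The authors' deposited table thus called 2 of the 5 genes, both lower, at an adjusted p under 0.05, where 36.8% of all genes were called, 18.3% lower and 18.5% higher. Their median log2 fold change was -0.60, against -0.02 over all genes of the authors' deposited table. In bulk samples, fewer cells of a type and less RNA per cell cannot be told apart.

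**Figure D1:**
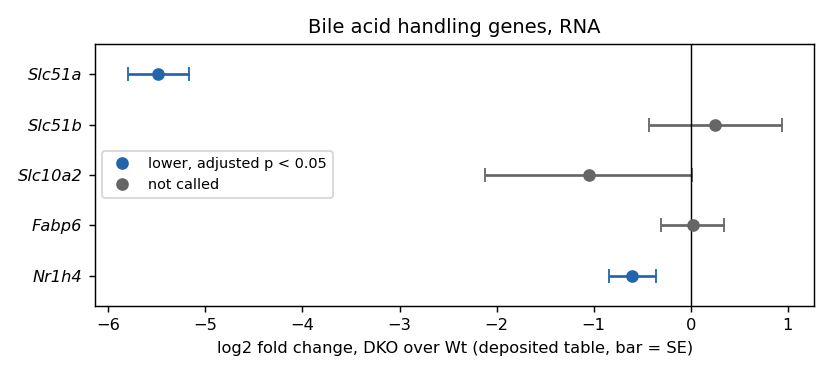
Log2 fold change of DKO over Wt for the 5 genes in the authors' deposited table (x axis). Points are the deposited estimates and bars their SE, blue where the adjusted p was under 0.05. Slc51a stands alone at -5.48, and the bars of Slc51b, Slc10a2 and Fabp6 reach across 0.

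Slc51a (ENSMUSG00000035699, chromosome 16, 32475578 to 32487879, GRCm38) had a mean normalized count of 1907 over the 4 libraries in the authors' deposited table. There its log2 fold change was -5.48 (adjusted p = 1.02e-66, SE 0.31), a level 44.8-fold higher in Wt. The 95% intervals given here and below were computed from the deposited values as the log2 fold change plus and minus 1.96 SE. For Slc51a the interval ran from -6.10 to -4.87. These intervals are approximate, because fold and SE imply another p than the deposited one for 15760 of 17511 genes. By p-value Slc51a ranked 34th of the 17511 genes of the authors' deposited table. Slc51b (ENSMUSG00000053862, chromosome 9, 65412753 to 65422773) had a mean normalized count of 1346, and its log2 fold change was 0.25 (adjusted p = 0.742, SE 0.68) in the authors' deposited table. Its 95% interval ran from -1.09 to 1.59, that is from 0.470-fold to 3.02-fold, which does not reach the change of Slc51a. The intervals of the 2 subunits did not overlap, although the difference itself was not tested, as the authors' deposited table gives no value per library. Slc51b shares 3386 bases of its span with Rasl12, a gene on the other strand, which had a mean normalized count of only 11.0 (log2 fold change -0.97, adjusted p = 0.183, SE 1.07) in the authors' deposited table.

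Slc10a2, the uptake transporter (ENSMUSG00000023073, chromosome 8, 5083219 to 5105287), was measured at a mean normalized count of 742 in the authors' deposited table. Its log2 fold change there was -1.05 with an SE of 1.07 (p = 0.0731, adjusted p = 0.151 in the authors' deposited table), so the change was not called. The interval from -3.14 to 1.04 covers both an 8.83-fold lower and a 2.06-fold higher level in DKO. Fabp6, the cytosolic carrier (ENSMUSG00000020405, chromosome 11, 43596040 to 43601562), had a mean normalized count of 664 and a log2 fold change of 0.02 (adjusted p = 0.973, SE 0.32) in the authors' deposited table. Here the interval was tighter, from 0.653-fold to 1.57-fold. Nr1h4, the receptor (ENSMUSG00000047638, chromosome 10, 89454234 to 89533645), had a mean normalized count of 1678 and fell by 0.60 on the log2 scale (adjusted p = 0.0283, SE 0.24) in the authors' deposited table. That is a level 1.52-fold higher in Wt, and the call was lost at an adjusted p under 0.01 or with a minimum of 2-fold.

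The genes differed in how precisely their change was measured. Among the 2849 genes with a mean within 1.5-fold of Slc10a2 in the authors' deposited table, the median SE was 0.25, and 99.6% had a smaller SE than Slc10a2. For Slc51b, 99.1% of 2458 genes of like mean had a smaller SE (median 0.23), and for Slc51a 92.8% of 1908 (median 0.22), in the authors' deposited table. Fabp6 and Nr1h4 stood lower in this order, at 86.4% and 65.8% of genes of like mean in the authors' deposited table. Genes were matched by mean alone and not by size of change, which was large for Slc51a. The spread between libraries behind these SEs was not analysed here. For Slc10a2 the log2 fold change divided by its SE was -0.985. Its p in the authors' deposited table corresponds to a normal deviate of -1.79, so the interval given above is wider than that p implies. The same 2 values were 0.368 and 0.514 for Slc51b and -17.4 and -17.6 for Slc51a. They were 0.061 and 0.062 for Fabp6 and -2.51 and -2.60 for Nr1h4.

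**Figure D2:**
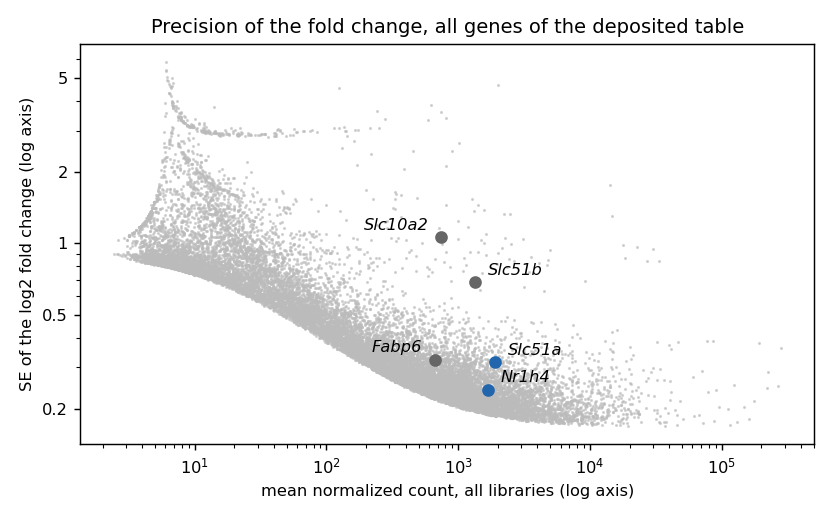
SE of the log2 fold change (y axis, log) against mean normalized count (x axis, log) for all genes of the authors' deposited table (grey), with the 5 bile acid genes marked, blue where called lower. Slc10a2 (1.07) and Slc51b (0.68) lie above nearly all genes of like mean, and Nr1h4 (0.24) lies within them.

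Open chromatin around the 5 genes was mostly seen in Wt. Within 10 kb of the gene spans, Wt replicates 1 and 2 held 18 and 21 ATAC peaks in all, and DKO replicates 1 and 2 held 2 and 3. Joined where they overlapped, the peaks made 27 regions. Of these, 14 had a peak in both Wt lists and in neither DKO list (called lost here), 0 had the opposite pattern, 0 were in all 4 lists, and 13 were mixed. Over the whole genome, 23.8% of 106432 regions were lost, 4.98% gained and 3.54% in all 4 lists, and 28.7% of the 64180 regions within 10 kb of a gene were lost. Of the 16 regions open in both Wt libraries near these genes 14 were lost, against 75.2% of such regions genome-wide, so that share was not far from the background. At least 1 lost region lay near 4 of the 5 genes, against 67.1% of all genes, and the same 4 had at least 2, against 40.3%. A region in all 4 lists lay near 0 of the 5, against 25.3% of all genes, and a gained region near 0, against 13.9%. The DKO lists were shorter than the Wt lists genome-wide, read depth is unknown for peak lists, and the part of either in these counts was not tested.

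**Figure D3:**
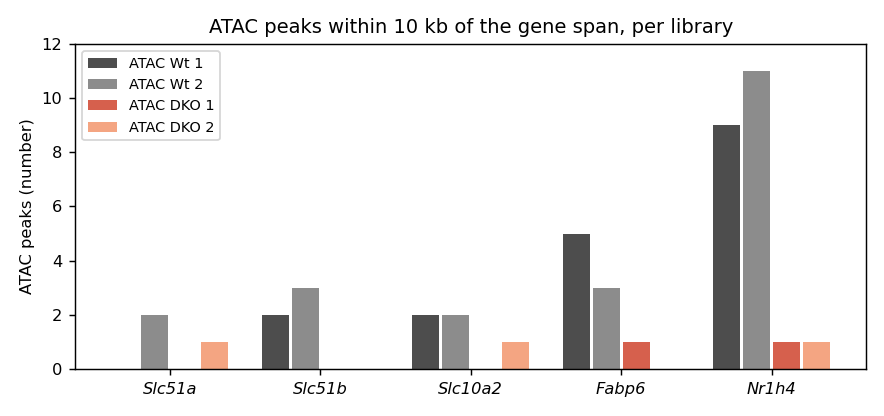
Number of deposited ATAC peaks within 10 kb of each gene span (y axis) in each of the 4 ATAC libraries (bars). Nr1h4 had 9 and 11 peaks in Wt and 1 and 1 in DKO, and Slc51a had 0 and 2 in Wt and 0 and 1 in DKO.

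The start regions of both exporter subunits were listed in Wt and in neither DKO list, in both Wt libraries at Slc51b and in Wt replicate 2 alone at Slc51a. At Slc51b, 2 and 3 peaks were listed in Wt replicates 1 and 2 and 0 in both DKO libraries. The promoter region (chr9:65422829-65423389) had a fold enrichment over local background, the authors' value for each peak, of 4.88 in Wt replicate 1 and 5.95 in Wt replicate 2, above 48.6% and 70.2% of the peaks in their lists. Its -log10 q was 4.89 and 8.28, so with a minimum of 5 it too was in Wt replicate 2 alone and no longer counted as lost. It held a Cdx2 peak (chr9:65423076-65423340, fold enrichment 5.97, above 60.3% of the Cdx2 peaks) whose summit lay at -406 from the start site, outside the sequence shown above. A second lost region (chr9:65408919-65409289) lay 3464 bases beyond the far end of Slc51b, inside Rasl12. Slc51b thus had a Cdx2 peak in a promoter region that neither DKO list held, and an RNA change that was not called.

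At Slc51a no region within 10 kb was lost, and 4 were within 50 kb. Within 10 kb, Wt replicate 1 held 0 peaks, Wt replicate 2 held 2, and DKO replicates 1 and 2 held 0 and 1. The region at the start site (chr16:32487437-32487942) was listed in Wt replicate 2 alone. Its fold enrichment was 7.57 (above 85.6% of its list), so the Wt lists differed at this promoter. The DKO replicate 2 peak lay 1118 bases upstream of the gene, in a region (chr16:32488997-32489316) also listed in Wt replicate 2. Fold enrichments there were 4.35 in Wt replicate 2 and 3.56 in DKO replicate 2. A gained region lay 32342 bases upstream (chr16:32520221-32520745), with 3.37 and 4.27 in DKO replicates 1 and 2. Its 2 peaks overlapped only at their edges, 32520512-32520745 in DKO replicate 1 and 32520221-32520529 in DKO replicate 2. Their -log10 q was 1.76 and 3.39. The nearest Cdx2 peak (chr16:32463378-32463772, fold enrichment 8.64, above 90.8% of the list) lay 11806 bases beyond the far end of the gene, inside Pcyt1a. That peak overlapped ATAC peaks in both Wt lists, with fold enrichments of 4.44 in replicate 1 and 4.81 in replicate 2, and in neither DKO list. Pcyt1a, an enzyme of phosphatidylcholine synthesis, was not called (log2 fold change -0.02, adjusted p = 0.960, SE 0.26 in the authors' deposited table).

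Slc10a2 had the highest-ranked open region within 10 kb of the 5 genes. It lay 1570 bases upstream of the gene (chr8:5106857-5107185), with fold enrichments of 11.4 and 11.0 in Wt replicates 1 and 2, above 98.6% and 97.9% of their lists, and no peak in either DKO list. No Cdx2 peak overlapped it. The strongest Cdx2 peak near the 5 genes (chr8:5073680-5074018, fold enrichment 11.2, above 97.5% of the list) lay between genes, 9201 bases beyond the far end of Slc10a2. It overlapped a weak ATAC region that was open in both Wt libraries, with fold enrichments of 4.03 in replicate 1 and 5.39 in replicate 2, and in no DKO library. Its -log10 q was 2.26 in replicate 1 and 4.71 in replicate 2, so with a minimum of 5 it dropped out. Another 2 Cdx2 peaks, 42444 and 24236 bases from the gene, overlapped no ATAC peak. In DKO, 1 peak was listed within 10 kb, in replicate 2, over the pseudogene Gm5739.

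Fabp6 was the only one of the 5 genes with no Cdx2 peak within 50 kb. Within 10 kb, its 3 lost regions lay upstream, 2803, 8891 and 9174 bases from the gene. The last was the strongest of these 3, with fold enrichments of 6.14 in Wt replicate 1 and 6.68 in Wt replicate 2. For those 2803 and 8891 bases away, -log10 q in Wt replicate 1 was 2.05 and 3.15, below the minimum of 5 used above. Wt replicates 1 and 2 held 5 and 3 peaks within 10 kb, DKO replicate 1 held 1, 465 bases beyond the far end of the gene, and DKO replicate 2 held 0. Regions lost near Fabp6 thus stood beside an RNA level whose 95% interval ran from 0.653-fold to 1.57-fold.

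Nr1h4, the longest gene of the 5, had 13 regions within 10 kb, of which 7 were lost. Both start regions described here were among them. The upstream start at the far edge of the span had a region (chr10:89533598-89533769) with fold enrichments of 7.25 and 8.99 in Wt replicates 1 and 2. The RefSeq start of the sequence shown above, within the span, had one (chr10:89506599-89506859) with 4.20 and 5.30. The -log10 q at this start was 2.95 in Wt replicate 1 and 5.62 in Wt replicate 2. With a minimum of 5 the region was thus in Wt replicate 2 alone and no longer counted as lost. A Cdx2 peak (chr10:89483739-89484074, fold enrichment 8.44, above 89.6% of the list) lay within the span, 22754 bases downstream of that start, and overlapped a lost region with fold enrichments of 8.48 and 9.26 in Wt replicates 1 and 2. The gene table used for positions gives spans and not exons, so exon or intron is not stated. DKO replicate 2 kept a peak at 2 further regions, 1 within the span (fold enrichment 3.36) and 1 at Gas2l3 (3.05, its own edge just beyond the window), that both Wt libraries also held.

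**Figure D4:**
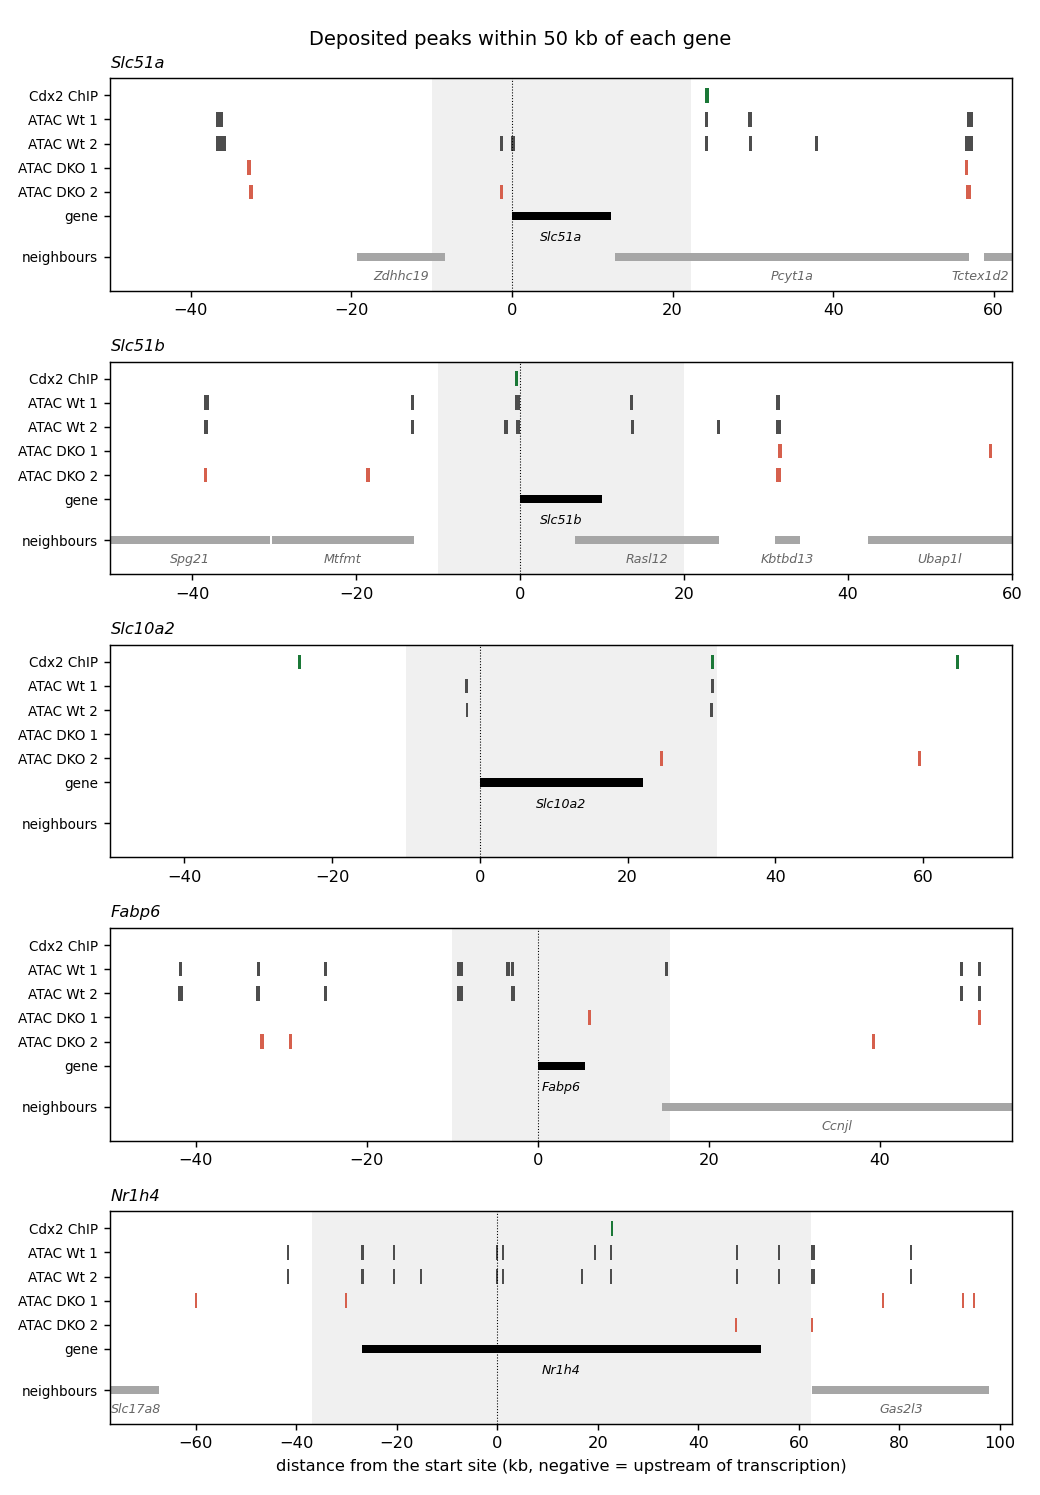
Deposited peaks within 50 kb of each gene, by distance from its RefSeq start site (x axis, kb, negative upstream). Green marks are Cdx2 peaks, dark marks Wt and red marks DKO ATAC peaks, drawn at least 0.4 kb wide. Black bars are the genes, grey bars protein-coding neighbours, and the shaded band is the 10 kb window; the Slc51b start carries a Cdx2 mark above Wt marks and no DKO mark.

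In all, 3 of the 5 genes (Slc51b, Slc10a2 and Nr1h4) had a Cdx2 peak within 10 kb, against 18.1% of all genes, and each of these 3 peaks overlapped a lost region. With peaks of -log10 q of at least 5 only, 1 of the 3 did, the one in Nr1h4. A Cdx2 peak in a lost region lay within 10 kb of 6.65% of 16303 genes, and 30.2% of 5100 Cdx2 peaks lay in a lost region. Of the 1084 genes with such a peak, 22.7% were lower, 19.6% higher and 57.7% not called in the authors' deposited table, against 18.6%, 19.3% and 62.1% of the 15219 genes without one. Of the 3 bile acid genes with such a peak, Nr1h4 was called lower and Slc51b and Slc10a2 were not called in the authors' deposited table. Slc51a, the gene with the largest change, had its Cdx2 peak outside the window.

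Other genes of the pathway, in 6 lists, moved in both directions. The authors' deposited table listed 54 of 68, 20 of them lower and 10 higher (18.3% and 18.5% of all genes), and their median log2 fold change was -0.03. Those not listed include Fgf15, the hormone that ileal FXR induces to restrain hepatic synthesis, and Nr0b2, the repressor SHP that FXR induces, so neither of these FXR targets can be read here.

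**Figure D5:**
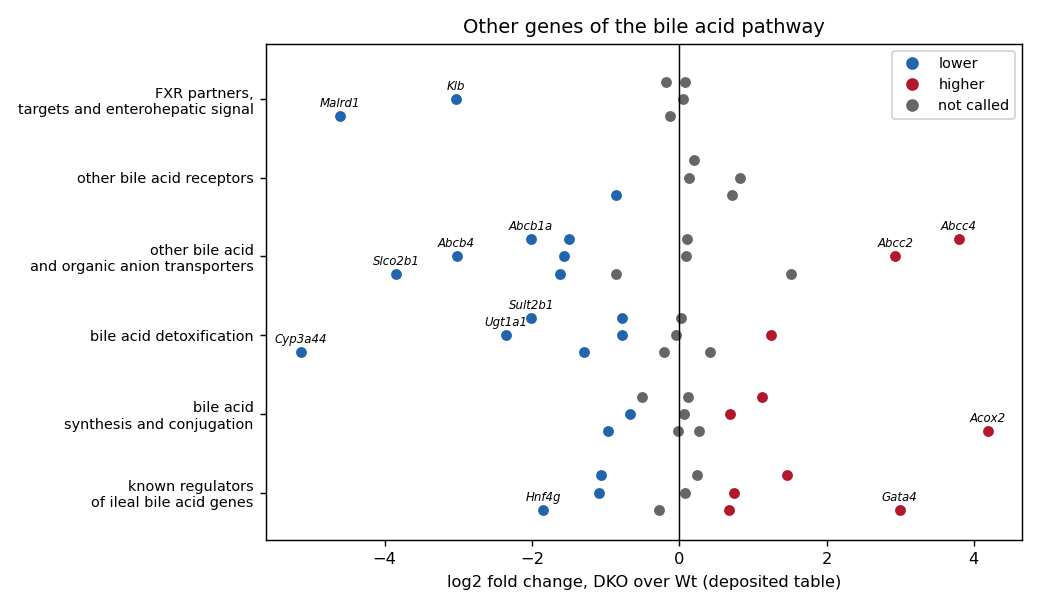
Log2 fold change of DKO over Wt in the authors' deposited table (x axis) for the listed genes of the 6 pathway lists (rows). Each point is a gene, blue where lower, red where higher and grey where not called; Malrd1, Slco2b1 and Cyp3a44 lie farthest left and Abcc4 and Acox2 farthest right.

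Among FXR partners and the enterohepatic signal, the authors' deposited table had 2 of 6 called lower and 0 higher. Over all its genes, 18.3% were lower and 18.5% higher. Malrd1, known as Diet1 and needed for normal Fgf15 output, fell by 4.60 on the log2 scale (adjusted p = 4.76e-20, SE 0.49) at a mean normalized count of 145 in the authors' deposited table. The other was Klb, the co-receptor for Fgf15 and below the mean of 50 used for naming, at -3.04 (SE 0.89, mean 34.3) in the authors' deposited table. Rxra, the partner that FXR binds DNA with, was not called (-0.18, adjusted p = 0.527, SE 0.20 in the authors' deposited table). Of 5 other bile acid receptors, only Vdr, the vitamin D receptor, which also senses lithocholic acid, was called, at -0.86 (SE 0.18) in the authors' deposited table.

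Of the transporters of bile acids and other organic anions, the authors' deposited table had 6 of 12 called lower and 2 higher. The shares over all genes were 18.3% and 18.5%. Abcc3, a basolateral exporter of conjugates, fell by 1.62 on the log2 scale (SE 0.19) at a mean normalized count of 8750 in the authors' deposited table. Abcc4, another exporter of the same family, rose by 3.79 (adjusted p = 4.90e-42, SE 0.27, mean 957), and the apical exporter Abcc2 rose by 2.93 (SE 0.84) at a mean normalized count of only 35.1, in the authors' deposited table. The exporters of the apical membrane Abcb1a at -2.01 (SE 0.22) and Abcg2 at -1.57 (SE 0.35) fell, as did the organic anion carriers Slco2b1 at -3.84 (SE 0.42) and Slco2a1, the prostaglandin transporter, at -1.49 (SE 0.29), in the authors' deposited table. The ABC exporters that can move bile acid conjugates across the basolateral side thus changed in opposite directions, Abcc3 lower and Abcc4 higher.

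Of 11 detoxification genes, the authors' deposited table had 6 called lower and 1 higher (median log2 fold change -0.77). Among all genes, 18.3% were lower and 18.5% higher. The sulfotransferases Sult2b1 at -2.01 (SE 0.30), Sult1a1 at -1.30 (SE 0.21) and Sult1b1 at -0.78 (SE 0.28) fell in the authors' deposited table. So did the glucuronosyltransferase Ugt1a1 at -2.35 (SE 0.27) and the cytochrome P450 Cyp3a44 at -5.14 (SE 0.87, mean 74.4), while Ugt2b35 rose by 1.24 (SE 0.31), in the authors' deposited table. Cyp3a, Ugt2b and Sult1a genes have close copies, and Ugt1a1 shares exons with other genes of its cluster, so reads could be split among them.

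Of 10 synthesis and conjugation genes, the authors' deposited table had 3 called higher, with 2 lower, against 18.5% and 18.3% of all genes. Acox2, the peroxisomal oxidase of the bile acid side chain, rose by 4.19 (SE 0.53, mean 289) and Amacr, the racemase before it, by 1.13 (SE 0.32) in the authors' deposited table. Cyp39a1 was at 0.69 (SE 0.27), Hsd3b7 at -0.96 (SE 0.24) and Acot8 at -0.67 (SE 0.22) in the authors' deposited table. The rate-limiting enzyme Cyp7a1 was among the 7 of 17 not listed in the authors' deposited table.

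Of 10 regulators known for ileal bile acid genes, the authors' deposited table had 4 called higher, with 3 lower. All genes together stood at 18.5% higher and 18.3% lower. Gata4, a factor of the proximal small intestine known to repress Slc10a2 there, rose by 2.99 (SE 0.62) at a mean normalized count of only 57.3, and Gata6 rose by 0.68 (SE 0.21, mean 1051), in the authors' deposited table. Hnf4a, a nuclear receptor of the intestinal epithelium, was at -1.09 (SE 0.24), Hnf4g at -1.85 (SE 0.61) and Cdx1 at -1.06 (SE 0.23) in the authors' deposited table. Ppara rose by 1.46 (SE 0.35) and the glucocorticoid receptor Nr3c1 by 0.74 (SE 0.27) in the authors' deposited table.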

How the data were processed

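The submitters' processing notes list the aligners BWA and Bowtie2, the trimmer fastp, the peak caller MACS2, Salmon 1.3.0 and DESeq2, with no roles. The authors deposited Salmon's estimated counts per transcript, used here for library totals and direction only, because no table used here pairs transcripts with genes. The planned gene-level count fit was therefore not run. Gene values are the authors' deposited mean normalized count (a signal), log2 fold change of DKO over Wt with SE, and p-values, per the file headers. For 15760 of 17511 genes, the fold and SE imply another p than the deposited one (by over 0.01 in log10). Direction was checked on features with a mean of at least 50000 that changed by at least 4 (log2). There 0 transcripts and 0 genes were higher in DKO, 4 and 3 lower. With a change of at least 2, 2 transcripts and 1 gene were higher, 5 and 4 lower. At a mean of at least 20000 and a change of at least 2, 3 transcripts and 2 genes were higher, 15 and 12 lower.

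Peaks carry the authors' deposited fold enrichment ratio, -log10 q and score. The labels name an IgG control for ChIP but not its use in calling. Peaks of each library were joined where they shared at least 1 bp (Python 3.11.15, pandas 2.3.3, scipy 1.17.1), with code tested on simulated peaks. RefSeq GRCm38.p6 gave spans for 16303 genes (93.1%) and promoters for all 5. Named genes are the 5, up to 6 called genes per list with a mean of at least 50, by size of change, a few set genes (Nr0b2, Fgf15, Abcc2, Abcc3, Hnf4a, Gata4, Gata6) and neighbours within 50 kb. Klb, Rxra, Cyp7a1 and the markers were named after their values were seen. The 5 genes, lists and rules were chosen with earlier results of these data known. Alternatives are in the closing section.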

Additional observations from a re-analysis of the deposited data

How the results depend on the processing

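The count of the 5 genes called lower fell from 2 to 1 at an adjusted p under 0.01 and to 1 with at least 2-fold, Nr1h4 being lost in both, while none was called higher under any rule tried. With a 50 kb window there were 25 lost regions, 1 gained, 2 in all 4 lists and 6 Cdx2 peaks in place of 14, 0, 0 and 3. With peaks of -log10 q of at least 5 only, 10 regions within 10 kb were lost in place of 14. Of the 3 Cdx2 peaks, 1 then lay in a lost region, the one in Nr1h4. Leaving out 1 ATAC library at a time gave 14 to 18 lost regions, 0 to 2 gained, 0 to 2 in all remaining lists, and 3 Cdx2 peaks in lost regions each time. The gained regions were 1 without DKO replicate 1 and 2 without DKO replicate 2, and the 2 in all remaining lists came without DKO replicate 1. The other settings listed for these counts (5 kb, 50% overlap, p readjusted over genes with a mean of at least 50) moved them by no more than 1.5-fold. No paired analysis was possible because the gene values come from a table without libraries and the peak lists were compared with no test. For the same reason DESeq2, an unfiltered fit and fits without 1 RNA library were not run.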

Other observations

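Genes beside the 5 loci were mostly not called, as were most genes of the authors' deposited table (36.8% called). Of the 7 neighbours within 50 kb that the authors' deposited table lists besides Rasl12 and Pcyt1a, Gas2l3, beside Nr1h4, was the only one called, at a log2 fold change of 0.95 (adjusted p = 0.0481, SE 0.45). Mtfmt and Spg21, upstream of Slc51b, were at -0.26 (SE 0.29) and 0.43 (SE 0.24), and Ccnjl, beside Fabp6, was at -0.46 (SE 0.46), in the authors' deposited table. Among the 54 listed genes of the 6 pathway lists, 16 of the 20 called lower had at least 1 lost region within 10 kb. So did 8 of the 10 called higher and 19 of the 24 not called, against 67.1% of all genes. A Cdx2 peak in a lost region lay within 10 kb of 5 of these 20 lower genes, 0 of the 10 higher and 6 of the 24 not called. The share over all genes was 6.65%. Abcc4, which rose, had 14 lost regions within 10 kb, and Malrd1, which fell, had 0. Over all genes, 40.3% had at least 2. The counts were not scaled to the length of the gene span, and these are 2 genes of the 54. No trend can be read from them.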
